A study of Mus musculus with 12 samples.

Results

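The hypothalamus of exercised Asmt-knockout mice (KE, 3 arrays) was compared with that of sedentary wild-type mice (WT, 3 arrays), which are 6 of the 12 arrays of the study. Genotype and swimming changed together in this comparison. WT mice were C57BL/6 animals without the deletion and without training. KE mice were homozygous for a 20 bp deletion in Asmt and were trained to swim without added weight. The other groups were sedentary knockouts (KO, 3 arrays) and exercised wild-type mice (exercised WT, 3 arrays). All mice were male, and the labelled age of 6 to 7 weeks is the age at which training started according to the methods. The deletion was made in zygotes with Cas9, so that it is present in every tissue, and the line was backcrossed for 3 generations. C57BL/6 mice are known to carry a weak form of Asmt, so the wild type here is not a strain with full enzyme activity. Arrays are numbered here by the replicate numbers of the sample titles, so that KE 1, KE 2 and KE 3 are the arrays named KE3, KE4 and KE6, WT 1, WT 2 and WT 3 are WT1, WT3 and WT4, and exercised WT 1, 2 and 3 carry the numbers 2, 3 and 4 in their names. The labels number the arrays without saying how many animals each RNA came from, and p-values therefore measure the spread between these arrays, which may be technical. The guide RNA that made the deletion is shown because it defines the knockout, with letters as the labels write them.
guide RNA against Asmt: gCGCCTACACCAACTCCCCCC

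Asmt methylates N-acetylserotonin in the final step of melatonin synthesis, mainly in the pineal gland. The hypothalamus holds neurons that release peptides controlling feeding, arousal, water balance and the pituitary, and it holds the central circadian clock. The question was which hypothalamic transcripts of a mouse with both changes stood at the WT level and which stood away from it, and whether the transcripts that differed in sedentary knockouts were back at the WT level after swimming.

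Most transcripts lay close to the WT level in KE in the fit without a correction for slide. At the brightest tested probe of each of 18266 genes, the 95% interval of the KE minus WT difference lay within 1.5-fold in either direction for 14070 genes (77.0%). They included 25 of 30 genes of GABA and glycine transmission (83.3%) and 31 of 36 of glutamate transmission (86.1%). The share was lower than over all genes for hypothalamic peptides (22 of 33, 66.7%), striatal genes (9 of 19, 47.4%), tanycyte genes (5 of 12, 41.7%) and red blood cell genes (0 of 7), among other lists. These shares depend on interval width as well, which pools the spread within all 4 groups, with KO on both slides. They were not taken with a correction for slide. Of the probes that passed the study's screening criterion, 903 were higher and 62 lower in KE, but 111 were higher and 170 lower after a correction for slide, and 634 of the 903 had the opposite sign with it. Dim probes, non-coding RNAs and sequences without a gene symbol were more frequent among the 903 than among all probes. Among named genes that passed the screening criterion both without and with a correction for slide were Hyal2 and Atrx, each lower at 1 probe. Cyp2a4, Cyp2a5 and Oca2 also passed both ways and were higher. Cyp2a4 and Cyp2a5 were at the WT level on KE 3, and without KE 1 neither passed. The Oca2 probe was well above background on the KE arrays alone and entered the tested set through them.

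The groups lay on different slides, which bears on every value below. The WT arrays and KO 1 and KO 2 were on slide 1, whereas the KE arrays, the exercised WT arrays and KO 3 were on slide 2. No slide held both KE and WT, so slide and group cannot be told apart within the comparison. Only KO was on both slides, and a limma fit with slide as a block takes the slide difference from KO 3 against KO 1 and KO 2 alone. Every value with the block therefore takes KO 3 to be a sedentary knockout, as it is labelled. The first principal component of the 12 arrays held 47.33% of the variance. On it the KE arrays lay between 27.06 and 34.64 and KO 3 at 39.97, and the WT arrays lay between -47.52 and -29.54. KO 3 thus lay with the KE arrays and not with the other knockouts. The slope of the spiked control RNAs was 0.975 to 0.979 on KE arrays and 0.899 to 0.940 on WT arrays. The 75th percentile of the processed signal was 1047 to 1164 on KE arrays and 824 to 844 on WT arrays, and no spot was saturated on any array.

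Markers of the labelled tissue were present on all 6 arrays. Oxt, the oxytocin gene, stood at 16.83, 16.59 and 16.92 normalized log2 signal on KE 1, KE 2 and KE 3, and at 17.12, 16.94 and 17.09 on the WT arrays. Nkx2-1, a transcription factor of the ventral hypothalamus, stood between 10.49 and 10.58 in KE and between 10.55 and 10.69 in WT, and the groups overlapped. The only Asmt probe was not well above background on any of the 12 arrays, with signals of 1.83 to 2.49, and so could not check the genotype.

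Some arrays stood apart in pituitary genes. Cga, the common subunit of the pituitary glycoprotein hormones, stood at 10.87 on KE 1 and at 1.85 and 1.89 on KE 2 and KE 3. It stood at 11.51 and 10.58 on KO 1 and KO 2, at 10.71 on exercised WT 3, at 5.90 on WT 2 and at or below 2.83 on the 5 other arrays. Pitx1, a transcription factor of the pituitary, was well above background on KE 1 (8.75), KO 1 (8.87), KO 2 (8.27) and exercised WT 3 (8.23), the same 4 arrays, and stood at 1.87 and 1.84 on KE 2 and KE 3. Of 11 anterior pituitary genes on the array, 6 were well above background on KE 1, 4 on KE 2, 2 on KE 3, and 2, 4 and 2 on the WT arrays. Their summed level was 11.36 on KE 1, 8.16 on KE 2, 8.05 on KE 3 and 7.74 to 8.30 in WT, on the log2 scale. The probe of Cga gave the highest signal of them on KE 1. Gh and Pou1f1, the growth hormone gene and the factor that defines its cells, were not well above background on any array. KO 1 and KO 2 thus differed from KO 3 in these genes as well as in slide. Their part in the results below was not tested, and results for genes that stood high on the same arrays are marked.

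A probe was taken as higher or lower in KE by the study's screening criterion, a difference of at least 2-fold with an unadjusted p under 0.05, here from limma, and "rose" and "fell" are kept for such probes. Of 35229 tested probes, 903 rose (2.56%) and 62 fell (0.176%). No probe had a Benjamini-Hochberg adjusted p under 0.05 in limma, although 10727 had an unadjusted p under 0.05, 4405 higher and 6322 lower. That 0 depended on the arrays in the fit, the variance model and the normalization. Without KO 3, the limma fit gave 8169 probes with an adjusted p under 0.05, and limma on the 6 KE and WT arrays gave 6194. With KO 3 kept, it gave 10553 with array weights, 3189 with a trended prior and 1838 with normexp background correction. The methods' t-test gave 4867 after the same adjustment. With slide as a block, 111 probes were higher past the criterion (0.315%) and 170 were lower (0.483%), or 151 and 128 on values scaled to the 75th percentile, and again no adjusted p was under 0.05, with 1724 unadjusted. Of the 965 probes past the criterion, 643 had the opposite sign with the slide block and 26 stayed past the criterion in the same direction. Without KE 1, the array with the pituitary genes, 898 probes were past the criterion.

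The position of the other arrays between the WT mean and the KE mean of each probe shows how the 903 probes that rose were distributed. KO 3 lay nearer to KE than to WT at 869 of them, and KO 1 and KO 2 at 50 and 48. The exercised WT arrays lay nearer to KE at 868, 855 and 796. At the median probe, KO 3 stood at 1.09 on a scale where 0 is the WT mean and 1 is the KE mean, KO 1 at -0.01 and KO 2 at -0.05. The KE arrays define the scale, and the 4 other arrays of slide 2 were on the KE side at most of these probes. Over all tested probes, KO 3 was nearer to KE at 69.4%, KO 1 at 25.7% and KO 2 at 26.1%. At the 62 probes that fell, the split was smaller, with KO 3 nearer to KE at 43, KO 1 at 19 and KO 2 at 17.

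**Figure D1:**
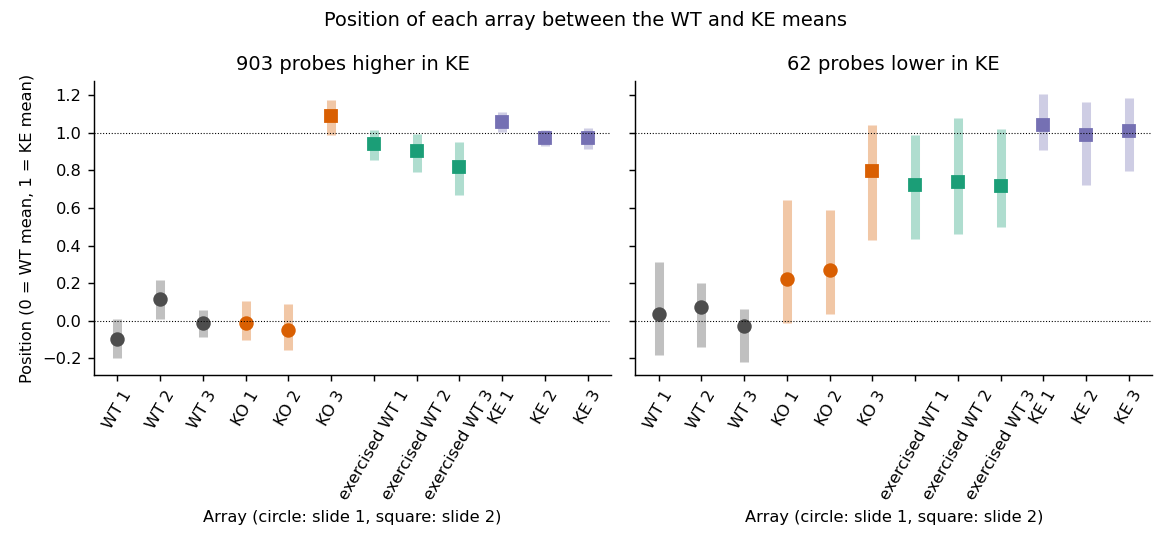
Position of each of the 12 arrays between the WT mean (0) and the KE mean (1), for the 903 probes that rose (left) and the 62 that fell (right) in KE; points are medians over probes, bars run from the first to the third quartile, and circles and squares mark slides 1 and 2. In the left panel the arrays of slide 2 lie between 0.82 and 1.09 and those of slide 1 between -0.10 and 0.11.

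The probes that rose were dim or poorly annotated more often than the rest. With all tested probes split into 4 equal classes by mean level over all arrays, 372 of them lay in the lowest class, 223 in the second, 183 in the third and 125 in the highest, or 4.22%, 2.53%, 2.08% and 1.42% of those tested. Of the 62 that fell, 61 lay in the lowest class. Among the probes that rose, 602 were well above background on all KE and WT arrays and 167 on no WT array, so that the latter have only a bound in WT. The KE and WT arrays did not overlap at 890 of the 903 and at 55 of the 62, but the criterion itself favours such probes.

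By kind of transcript, probes without a gene symbol and probes for long non-coding RNAs rose more often than others. Of 2688 tested probes without a symbol, 293 rose (10.9%), and of 2087 long intergenic non-coding RNA probes, 105 rose (5.03%). Olfactory receptor genes, which encode the odour receptors of the nose, had 15 of 93 probes that rose (16.1%). All other probes with a symbol had 490 of 30361 (1.61%). Of the 501 genes with a probe that rose, 252 had several tested probes, and all of those rose for 2 genes. The 466 other probes of those genes had a median difference of -0.09, beside -0.07 over all tested probes.

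Base composition of the 60-base probes went with the difference. Of 419 probes with at most 30% G and C, 71 rose (16.9%), and of 387 probes above 60%, 18 rose (4.65%), while every class between lay at 2.08% to 2.90%. The median difference was 0.24 in the class with least G and C, -0.12 at 55 to 60%, and 0.10 above 60%. KO 3 against KO 1 and KO 2, which share the genotype and the lack of training, gave 0.33 in the first class and 0.18 in the last. KE against exercised WT, on the same slide, gave between -0.02 and 0.03 in every class. Probes for non-coding transcripts that rose and hold little G and C are shown here, in capitals for G and C.
lincRNA probe A_30_P01033004: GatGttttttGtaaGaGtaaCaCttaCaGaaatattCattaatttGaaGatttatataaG
lincRNA probe A_30_P01018619: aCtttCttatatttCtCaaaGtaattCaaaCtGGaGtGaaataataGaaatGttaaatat
1110002L01Rik: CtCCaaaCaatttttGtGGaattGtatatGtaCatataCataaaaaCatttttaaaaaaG
The first lies at chr5:100850987-100851046 on the minus strand (mm9, as the array annotation gives it) and was not well above background on any WT array (3.00, 2.92 and 3.01). It stood at 6.45, 5.54 and 5.38 on the KE arrays, at least 2.89-fold higher, and at 5.86 on KO 3 against 2.70 and 2.20 on KO 1 and KO 2. The second lies at chr13:67806599-67806658 and stood at 4.56, 4.64 and 4.73 in KE, at least 1.31-fold above WT, and at 5.37 on KO 3. The third lies at chr12:3404452-3404511 and stood at 4.43, 4.33 and 4.37 in KE, at least 1.09-fold above WT, and at 4.58 on KO 1. All 3 were below background on every WT array. The motif AGAAA, chosen after the sequences were seen and counted as written in the probe, was in 25.2% of the probes that rose, 12.9% of those that fell and 14.7% of all tested probes.

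**Figure D2:**
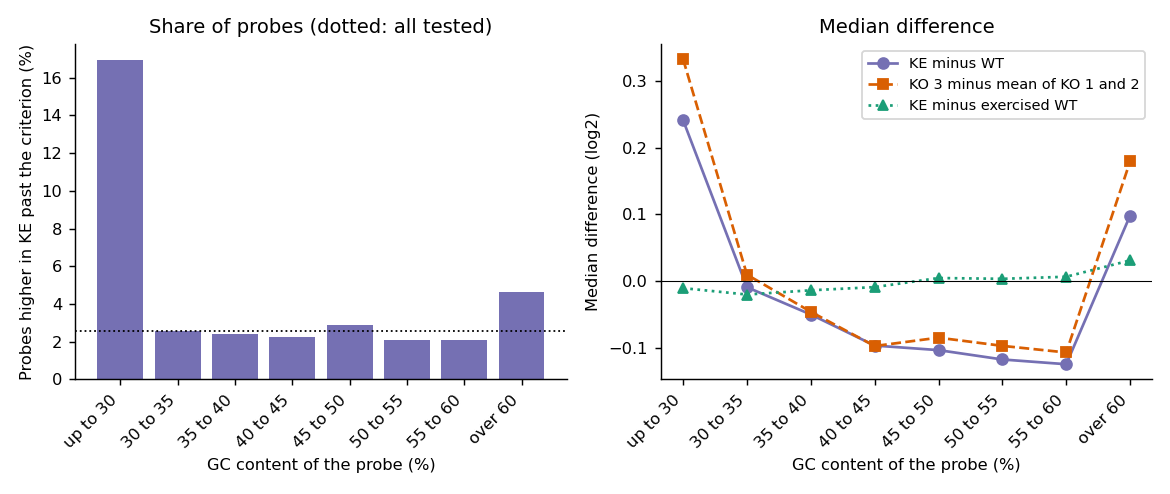
Share of tested probes that rose in KE (left, percent) and median log2 difference (right) by the share of G and C in the probe; the dotted line on the left is the share over all tested probes (2.56%). In the class of at most 30% the share was 16.9%, and the curves of KE minus WT and of KO 3 minus KO 1 and KO 2 were both above 0 there, at 0.24 and 0.33.

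The largest rises among probes well above background on all KE and WT arrays followed the slide. Gm12504, a predicted pseudogene at chr4:44136851-44136910, stood at 8.98, 8.71 and 9.02 in KE and at 5.99, 6.05 and 5.81 in WT, and its probe is shown because it had the largest such rise.
Gm12504: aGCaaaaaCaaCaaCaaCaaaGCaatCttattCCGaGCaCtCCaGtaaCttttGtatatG
The difference was 2.95 ± 0.70 (log2, SE, n = 3 and 3, limma adjusted p = 0.0624), and KO 1, KO 2 and KO 3 stood at 5.71, 5.92 and 9.08. The SE pools the spread within all 4 groups, and the SD between arrays was 0.17 in KE, 0.13 in WT and 1.89 in KO. KO 3 was as high as KE and the other knockouts as low as WT, and with the slide block the difference was -0.32. At 1 probe of Ep300, a histone acetyltransferase, the values were 7.83, 7.64 and 7.84 in KE and 4.97, 5.38 and 5.14 in WT, a difference of 2.61 without and -0.30 with the block. The 2 other Ep300 probes differed by 0.18 and -0.16, and neither passed the criterion. Paip2b, an inhibitor of translation that binds the poly(A)-binding protein, rose by 2.56 at 1 of 4 probes, Olfr173, an odour receptor gene, by 2.37 and 4933431I19Rik by 2.84. In the latter WT stood at 4.45, 7.74 and 7.36, and without WT 1 the difference was 1.81 and no longer passed. All 3 had a negative difference with the block (-0.52, -0.12 and -0.39).

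The 26 probes past the criterion both without and with the slide block comprised 14 that rose and 12 that fell, and 22 had a gene symbol. Few were bright. By the rule for named genes, which asked for a signal on all KE and WT arrays and no overlap, 2 genes remained, Hyal2 and Atrx, and both fell. With normexp background correction of the scanner output 1 probe fell in all, the differences of Hyal2 and Atrx were -0.84 and -0.66 and no longer passed, and Cyp2a5 alone kept its call among the genes named from the 26 probes. Hyal2 encodes an enzyme that degrades hyaluronan at the cell surface. It stood at 4.87, 5.23 and 4.43 in KE and at 6.82, 6.74 and 6.91 in WT. All KE arrays were lower than all WT arrays, KO 1 and KO 2 stood at the WT level (6.78 and 6.65), and KO 3 (5.98) and the exercised WT arrays (5.77, 4.60 and 5.57) lay lower. The difference was -1.98 ± 0.32 (SE, n = 3 and 3, limma adjusted p = 0.0624), or 3.93-fold, and -1.24 with the block. The brighter of its 2 probes differed by -0.14 and did not pass the criterion.

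Atrx encodes a chromatin remodelling protein of heterochromatin. Its probe stood at 5.30, 4.98 and 5.27 in KE and at 6.66, 6.49 and 6.62 in WT, with no overlap. KO stood at 6.53, 5.53 and 6.15 and exercised WT at 5.89, 6.07 and 5.53, so that all of these arrays lay above the KE arrays, and all but KO 1 below the WT arrays. The difference was -1.41 ± 0.23 (limma adjusted p = 0.0624) and -1.53 with the block. The 3 other Atrx probes, each brighter, differed by -0.37, -0.19 and -0.19, in the same direction but not past the criterion.

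Cyp2a4 and Cyp2a5 encode cytochromes P450 that hydroxylate steroids and other small molecules, and are nearly identical in sequence, so that their probes may read the same transcripts. Cyp2a5 stood at 8.70, 7.86 and 5.39 in KE and at 5.55, 5.40 and 5.39 in WT. KE 1 and KE 2 were high and KE 3 was at the WT level, so the groups overlapped. Cyp2a4 had the same order, with 7.91, 7.04 and 4.67 in KE against 4.89, 5.04 and 4.60 in WT. The differences were 1.87 ± 0.71 for Cyp2a5 (limma adjusted p = 0.118) and 1.698 ± 0.72 for Cyp2a4 (limma adjusted p = 0.146). Without KE 1 they were 1.18 and 1.01 and neither passed, and neither passed in limma on the 6 arrays. KO 1 and KO 2 (7.29 and 6.73 for Cyp2a5) and the exercised WT arrays (7.47, 6.95 and 6.71) were also well above the WT arrays, and KO 3 (5.67) was above them by a small amount. Of the high arrays, KE 1, KO 1, KO 2 and exercised WT 3 also held Cga, and KE 2, exercised WT 1 and exercised WT 2 did not. Cyp2g1, a cytochrome P450 of the olfactory mucosa, was above background on KE 1 (5.53), KE 2 (5.68), exercised WT 1 (4.998) and exercised WT 2 (4.63). It was not above background on KE 3 (1.87), KO 1, KO 2 or exercised WT 3. The part of such tissue in the Cyp2a4 and Cyp2a5 differences was not tested.

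Oca2, which encodes a transporter of pigment granules, was well above background on the KE arrays alone. It stood at 5.22, 6.32 and 5.95 in KE and at 3.64, 1.95 and 4.19 in WT, and the other 6 arrays lay between 2.73 and 3.91. KE was at least 2.98-fold higher than WT. The other groups have only a bound, and the probe passed the filter through KE alone.

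The next 6 genes also rose in both fits, each at a dim probe, and 5 of them have brighter probes that did not pass the criterion. They were added after their values were seen. Kcnh7, a potassium channel gene of the ERG type, stood at 5.10, 4.96 and 4.83 in KE and at 4.39, 3.91 and 3.53 in WT, with 1 WT array above background, and rose by 1.02 (1.79 with the block). Without KE 1 the difference was 0.95, and without WT 3 it was 0.82, both under the 2-fold limit. Glra3, a glycine receptor subunit, rose by 1.20 at the dimmer of 2 probes, and the brighter probe differed by 0.17. Irak4, a kinase of interleukin-1 and Toll-like receptor signalling, rose by 1.36 at the dimmer of 2 probes, and the brighter differed by 0.02. At the dim probes of both genes 1 WT array was above background, and at the brighter probes all were. Both dim probes passed the filter through KE alone. For Kcnh7, Glra3 and Irak4 the WT mean thus rests mostly on signal not well above background, so that these differences are not exact folds. At the dimmest probe of Ap2b1, a subunit of the clathrin adaptor, no WT array was well above background and KE was at least 1.29-fold higher, whereas its 4 other probes differed by -0.28 to 0.25. At the dimmest probe of Ankrd33b KE was likewise at least 1.55-fold higher, and its 2 other probes differed by -0.11 and -0.35. Zfp74, a zinc finger gene, rose by 1.06 at 1 probe, where the difference without KE 2 was 0.72, and its 2 brighter probes differed by -0.12 and -0.25. Under the 2-fold limit were also Glra3 without WT 3, Ap2b1 without KE 2 or WT 3, and Ankrd33b without WT 1 or WT 3.

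The remaining genes of this kind were read at dim probes too. Wdyhv1 rose by 1.06 at the dimmer of 2 probes, and the brighter differed by 0.02. Gm2511 rose by 1.37. At these rising probes 1 WT array of Wdyhv1 and 2 of Gm2511 were above background, so that the differences are not exact folds. Both probes passed the filter through KE alone. Without KE 1 the differences of Wdyhv1 and Gm2511 were 0.87 and 1.11, and neither passed. Without WT 3 they were both 0.95, and without WT 2 Wdyhv1 was at 0.82, all under the 2-fold limit. Gm33609 and the dimmer of 2 probes of 4933432I09Rik were not well above background on any WT array and were at least 1.5025-fold and 1.61-fold higher in KE, whereas the brighter 4933432I09Rik probe differed by -0.13. The Gm33609 probe and the dimmer 4933432I09Rik probe passed the filter through KE alone. Gm30789 was not well above background on any KE array, at least 1.74-fold lower, and without WT 2 its difference was -0.88 and did not pass. Its probe passed the filter through WT alone. At the dimmest probe of Hpca, which encodes the neuronal calcium sensor hippocalcin, no KE array and 1 WT array were above background, so that no fold is given, and its 2 bright probes differed by -0.03 and -0.16.

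Among the genes that fell in both fits, Mybph, a myosin-binding protein gene, was at least 1.74-fold lower in KE. Gm1070 stood at 4.27, 4.86 and 3.67 in KE and at 6.30, 5.82 and 6.02 in WT, and fell past the criterion. Only 1 KE array was above background, so that no fold is given. A pair of non-coding RNAs fell to background in KE, and their probes are shown for that reason, with G and C in capitals.
E030007A22Rik: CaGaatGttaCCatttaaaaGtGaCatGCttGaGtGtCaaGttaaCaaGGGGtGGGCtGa
1700092K14Rik: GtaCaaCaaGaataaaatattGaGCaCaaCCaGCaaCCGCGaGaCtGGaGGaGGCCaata
E030007A22Rik, at chr13:49356798-49356857 on the plus strand, stood at 4.11, 5.25 and 5.07 in WT and was not well above background on any of the 9 other arrays, with 1.86, 1.89 and 4.04 in KE, at least 1.55-fold lower. 1700092K14Rik, at chr11:114060436-114060495, stood at 4.52, 5.26 and 4.83 in WT and at 3.29, 2.46 and 3.44 in KE, at least 1.62-fold lower. In the latter, KO 1 and KO 2 stood at 3.60 and 3.12 beside WT on slide 1, and the means on slide 2 were 3.07 in KE, below background, and 4.22 in exercised WT. The probes of E030007A22Rik and 1700092K14Rik passed the filter through WT alone.

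**Figure D3:**
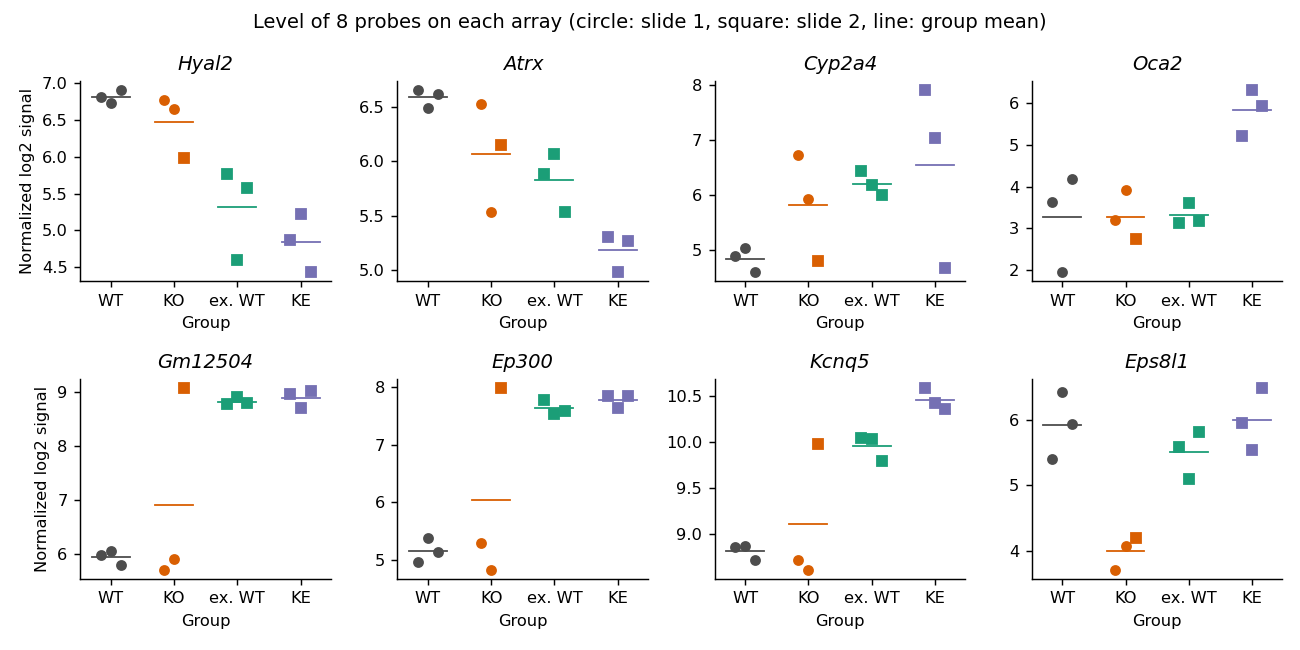
Normalized log2 signal of 8 probes on each of the 12 arrays by group, with lines at the group means; circles are arrays of slide 1 and squares of slide 2. In Gm12504, Ep300 and Kcnq5 the single KO square lies nearer to the KE mean than to the WT mean (ex. WT marks exercised WT). In Hyal2, Atrx and Oca2 it lies nearer to the WT mean. All of these genes separate KE from all WT arrays, and Cyp2a4 is high on KE 1 and KE 2 alone among the KE arrays.

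Falls past the criterion that the slide block did not keep were those of Mars2, the mitochondrial methionyl-tRNA synthetase, by 1.21, Ankrd42, at the dimmest of 3 probes, by 1.16 and D2Ertd295e by 1.12 on the log2 scale. Mars2 stood at 4.42, 4.79 and 4.51 in KE and at 5.41, 6.58 and 5.35 in WT, and without WT 2, the high array, the difference was -0.81. Without WT 1 or without KE 3 the D2Ertd295e difference was under the 2-fold limit. The block gave -0.77, -0.37 and -0.48 for the 3 genes, in the same direction but not past the criterion.

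The genes that differed in sedentary knockouts addressed the return to the WT level. In KO against WT, 79 probes passed the criterion (0.224%), and 39 of them did so also with the slide block. KE lay nearer to the WT mean than to the KO mean at 17 of the 39 and nearer to KO at 22, and at 18 it was itself past the criterion against WT on the KO side. Both comparisons share the WT arrays, so these counts are a description. Of all 79, KE was nearer to WT at 22, and over all tested probes at 37.4%. With slide as a block, 89 probes passed the criterion in KO, and KE was nearer to WT at 61 of them. The block changed only which probes were counted, and the levels compared were not corrected for slide. By direction, 9 of 20 probes higher in KO and 8 of 19 lower in KO were nearer to WT in KE.

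Eps8l1, which encodes a relative of the actin regulator Eps8 and is named in the study, stood at the WT level. Its values were 5.95, 5.53 and 6.48 in KE and 5.40, 6.41 and 5.93 in WT, against 3.72, 4.08 and 4.19 in KO, where 1 array was above background. KE and WT overlapped, and both lay above every KO array on either slide. The KE minus WT difference was 0.07, with a 95% interval from -0.61 to 0.75. Of the other named genes nearest to WT, a dim Sytl2 probe, for a vesicle-tethering protein, stood at 4.54, 4.91 and 5.06 in KE against 4.84, 4.72 and 4.77 in WT, and the brighter Sytl2 probe differed by -0.16. 9030601B04Rik stood at 5.39, 5.15 and 5.76 in KE and at 4.51, 5.18 and 7.29 in WT, a difference of -0.23 with a 95% interval from -1.53 to 1.07. Without WT 3, the high array, it was 0.59, the opposite sign. The dimmest probe of Dhx57, a helicase gene, was not well above background on any KE or WT array, so that no difference is given, and its 2 bright probes differed by -0.20 and -0.02.

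For Wfdc2, KE 2 and KE 3 lay near or below the WT arrays and KE 1 stood apart, and Tspan1 was also highest on KE 1 within KE. Wfdc2, a secreted protease-inhibitor-like protein of epithelia, stood at 8.87 on KE 1 and at 4.28 and 5.002 on KE 2 and KE 3, with WT between 5.02 and 5.79. It stood at 10.74 and 9.80 on KO 1 and KO 2 and at 5.95 on KO 3. The high arrays were those with Cga and Pitx1, and exercised WT 3 (7.43) was the highest of its group. Tspan1, a tetraspanin of epithelial cells, was 5.17 on KE 1 and 3.15 and 2.65 on the others, and 5.93 and 5.39 on KO 1 and KO 2. No WT array was above background for Tspan1, and of the KE arrays KE 1 alone was, so that KE 2 and KE 3 cannot be placed against WT. With the block the Wfdc2 difference was 4.97 and past the criterion.

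Genes that stayed on the KO side in KE were read at dim probes. Rnf224, a gene for a ring finger protein, stood at 5.97, 5.99 and 5.64 in KE and was not well above background on any WT array, at least 3.06-fold lower there. KO 3 stood at 6.05, and KO 1 and KO 2 at 3.92 and 4.36, so KO differed by slide as well. A dimmer Rnf224 probe, above background on 2 WT arrays and 1 KE array, had a difference of -0.53. A330076H08Rik was at least 1.88-fold, Gm9878 at least 1.65-fold, 9230102O04Rik at least 1.32-fold and the dimmer Sh2d4b probe at least 1.07-fold above the WT signal, and the brighter Sh2d4b probe differed by 0.09. With the slide block Gm9878 and 9230102O04Rik had the opposite sign (-0.25 and -0.54). Both were above background on no WT array and on 1 KO array, so that this sign is not a measured difference. The dimmer Sh2d4b probe passed the filter through KE alone. E030007A22Rik, described above, stayed low.

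**Figure D4:**
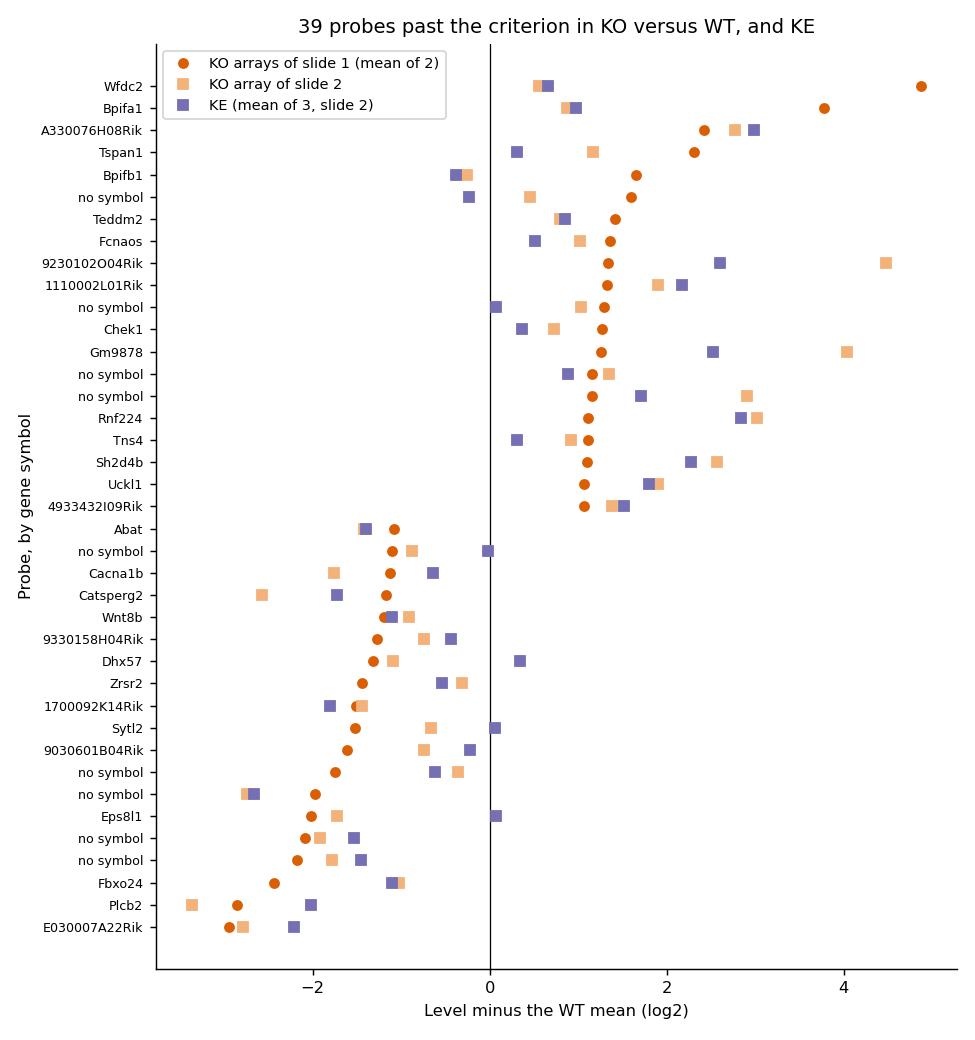
Level minus the WT mean (log2) in KO and in KE for the 39 probes past the criterion in KO against WT without and with the slide block, named by gene symbol. KE lies nearer to 0 than to KO at 17 probes, Eps8l1 among them, and nearer to KO at 22.

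Arrays that share no sample gave a separate reading of the deletion. On slide 1, KO 1 and KO 2 against WT gave 89 probes past the criterion (0.253%), 3 of them with a limma adjusted p under 0.05. On slide 2, KE against exercised WT had the same direction at 38 of the 89 (42.7%), against 41.8% of all tested probes. Past the criterion in KE against exercised WT were 89 of all tested probes (0.253%) and 2 of these 89, which are named after their values were seen. They were 1700092K14Rik, lower in both, and a Plcb2 probe that was lower in KO on slide 1 but not well above background on any KE array (mean 3.19), so that no direction is given for it on slide 2.

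The other genes named in the study did not pass the criterion in KE against WT at their brightest probe. Plcb2, a phospholipase C isoform, stood at 7.34, 7.31 and 7.52 in KE and at 6.47, 6.81 and 6.72 in WT, a difference of 0.72 (-0.29 with the block). Another of its probes fell, from a mean of 5.21 in WT to 3.19 in KE, where it was below background on every array, and the third differed by -0.20. With the block the probe that fell differed by -1.51 and did not pass. Mdm4, a p53 inhibitor, differed by 0.53 (limma adjusted p = 0.0624) with no overlap, Chek1, a checkpoint kinase, by 0.36 and Cdkn1a, a cell cycle inhibitor induced by p53, by -0.51, and with the block the 3 genes differed by 0.29, 0.91 and 0.08. The Chek1 probe was above background on 1 WT array and 2 KE arrays, so that its differences are not exact. Hspa1b, an inducible heat shock protein 70 gene, differed by -0.46 (0.11 with the block), Sytl2 by -0.16, Itpr2 by 0.07, Pidd1 by 0.05 and Mpp1 by -0.02. Dimmer probes of Mdm4 and Pidd1, an adaptor of cell death signalling, rose by 1.20 and 1.13 (0.42 and 0.26 with the block, not past the criterion). The other 4 Mdm4 probes differed by -0.57 to 0.08, and the other dim Pidd1 probe by 0.11. The 3 dimmer Itpr2 probes differed by -0.94, -0.10 and 0.33, and a pair of dimmer Mpp1 probes by -0.55 and -0.89. Another Mpp1 probe, past the criterion in KO, was not well above background on any WT array and stood at a mean of 4.12 in KE and 4.81 in KO. For Itpr2 the interval was -0.06 to 0.20 and for Mpp1 -0.14 to 0.10.

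For pathways and cell types, 1 probe was taken for each gene, and a gene was counted as higher or lower at an unadjusted p under 0.05. Over all genes, 2073 of 18266 were higher (11.3%) and 3144 lower (17.2%), with a median of -0.06, and 338 passed the screening criterion (1.85%). With the slide block 268 were higher (1.47%) and 372 lower (2.04%). Of the 987 genes on any list, 102 were higher and 165 lower, and with the block 21 in all passed. The lists below are read against these shares.

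Hypothalamic peptide genes had narrow intervals around the WT level less often than all genes did, a share that depends on interval width as well as on the difference. Of 33 tested, 22 had an interval within 1.5-fold (66.7%), beside 77.0% of all genes. By count 3 were higher and 2 lower, none past the criterion, with a median of -0.06, the same as over all genes. Pmch, which encodes the feeding peptide melanin-concentrating hormone, stood at 15.20, 15.18 and 15.15 in KE and at 14.42, 14.74 and 14.61 in WT. KE was above all WT arrays, by 0.58 ± 0.18 (limma adjusted p = 0.0775), KO 3 stood at 15.29, and the block gave -0.08. Sst, somatostatin, differed by 0.35 and Npff, neuropeptide FF, by 0.25, and Pdyn, prodynorphin, by -0.35, and with the block by 0.02, 0.12 and -0.07. Avp, vasopressin, differed by -0.17, Hcrt, orexin, by -0.09, Trh, thyrotropin-releasing hormone, by -0.10, Npy by 0.05 and Crh, corticotropin-releasing hormone, by 0.00, each with overlapping arrays. Agrp, which drives feeding, differed by 0.25, and Pomc, the precursor of peptides that curb it, by -0.34 (0.72 and -0.22 with the block).

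Of 25 hypothalamic transcription factors, Sim1 alone passed. Sim1, needed for the paraventricular nucleus, stood at 6.77, 6.44 and 6.50 in KE and at 4.22, 5.08 and 4.10 in WT, and rose by 2.10, with 2 WT arrays above background. KO 3 stood at 7.23 and KO 1 and KO 2 at 4.10 and 4.15, and with the block the difference was -1.004, the opposite sign and past the criterion. Otp and Fezf1, at bright probes, differed by -0.20 and -0.19, and with the block by -0.27 and 0.14.

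Receptors for feeding and arousal signals gave 3 higher and 6 lower of 29, with a median of -0.04. Sstr2, a somatostatin receptor, stood at 6.38, 6.34 and 6.39 in KE and at 6.78, 6.96 and 6.76 in WT, a difference of -0.46 ± 0.09 (limma adjusted p = 0.0624). It was lower on every KE array, and the block gave -0.33. Lepr, the leptin receptor, differed by 0.31 (0.20 with the block) and Npy2r, a neuropeptide Y receptor, by 0.39 (-0.0025 with the block), with all KE arrays above all WT arrays for both. Of 23 genes of the stress and steroid axis, 1 was higher and 1 lower. Esr2, the second oestrogen receptor, stood at 11.21, 11.27 and 11.10 in KE and at 11.12, 10.81 and 10.81 in WT, a difference of 0.28, and of 0.38 with the block, with KE 3 below WT 1. Nr3c1, the glucocorticoid receptor, differed by -0.13.

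The thyroid hormone list gave 0 higher and 5 lower of 15, with a median of -0.10. Slco1c1, a thyroid hormone transporter of the blood-brain barrier, differed by -0.31 and Rxra, a partner of the thyroid hormone receptor, by -0.29, and both were near 0 with the block (-0.12 and -0.01). Of 19 genes of melatonin and serotonin, 0 were higher and 1 was lower. This was Htr1d, a serotonin receptor gene, with a difference of -0.39 and all KE arrays below all WT arrays, and without KE 1, the lowest, it was -0.22. Ddc, the enzyme that makes serotonin and dopamine, differed by -0.26, and the block gave -0.45 for Htr1d and 0.07 for Ddc. Aanat, which acetylates serotonin, was read at 3 probes, the brightest at 8.39, 8.33 and 8.52 in KE and 8.37, 7.87 and 8.40 in WT, with overlap.

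Clock genes gave 4 higher and 3 lower of 26, with a median of -0.04. Ciart, a clock repressor, stood at 7.56, 7.74 and 8.01 in KE and at 7.23, 7.23 and 7.36 in WT, a difference of 0.50 ± 0.12 (limma adjusted p = 0.0624) and of 0.37 with the block. Every KE array was above every WT array. Bhlhe40 and Bhlhe41, repressors of the same loop, differed by -0.25 and -0.26 (both -0.12 with the block). Cry1, a core repressor, rose by 1.14 at a dim probe, but the block gave -0.72, another probe differed by -0.62, and without KE 1 the difference was 0.97.

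The lists of immediate-early genes and of heat shock and chaperone genes had medians below that of all genes without the block and above 0 with it. The lists of endoplasmic reticulum stress and antioxidant defence did not lie below all genes, with medians of -0.05 and -0.04 (-0.01 and 0.02 with the block). Immediate-early genes gave 0 higher and 1 lower of 23, with a median of -0.15 (0.05 with the block). Fosb differed by -0.45 with overlap of the arrays, and Sik1 by -0.23 (-0.39 and -0.09 with the block). Heat shock and chaperone genes gave 0 higher and 10 lower of 23, with a median of -0.18 (0.03 with the block). Dnajb1, a co-chaperone of heat shock protein 70, stood at 14.44, 14.25 and 14.25 in KE and at 15.10, 14.70 and 14.64 in WT, and Stip1 and St13, co-chaperones that link heat shock proteins 70 and 90, differed by -0.29 and -0.22. With the block the 3 genes differed by 0.03, 0.02 and -0.07. None of the 10 was past the screening criterion.

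The p53 list and the list of phospholipase C and long-term depression come from pathways the study chose on these samples, and so are not independent evidence of a direction. The p53 list gave 4 higher and 2 lower of 37, 1 of them past the screening criterion, with a median of -0.07 (0.02 with the block) and differences from -0.51 to 1.74. With the block it gave 1 higher and 0 lower. Gadd45a, a DNA damage gene, differed by 0.35 and Atm, the kinase that senses DNA breaks, by -0.26, and both had the opposite sign with the block (-0.05 and 0.10). The phospholipase C list gave 7 higher and 3 lower of 39. Itpr3, a calcium release channel, differed by 0.78 and Plcb4 by 0.47, and with the block by -0.05 and 0.17. The list around Eps8l1 gave 1 higher and 1 lower of 6.

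Synaptic genes showed small differences. GABA and glycine genes gave 5 higher and 0 lower of 30, and glutamate genes 5 higher and 2 lower of 36, with medians of -0.03 and -0.01. Gabbr2, a subunit of the metabotropic GABA receptor, differed by 0.54, Grin3a, an NMDA receptor subunit, by 0.50 and Grik1, a kainate receptor subunit, by 0.52. All 3 were negative with the block (-0.24, -0.13 and -0.26). Potassium channel genes gave 3 higher and 11 lower of 45, with a median of -0.12 (0.01 with the block). Kcnq5, a channel of the M-current, stood at 10.59, 10.42 and 10.36 in KE and at 8.85, 8.87 and 8.72 in WT, and rose by 1.64 ± 0.29 (limma adjusted p = 0.0624). The block gave 0.32, and the other 2 Kcnq5 probes differed by -0.47 and -0.04.

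Housekeeping complexes held more genes that were lower than higher, by small amounts. Cytosolic ribosomal protein genes gave 13 higher and 32 lower of 78, with a median of -0.10 (0.00 with the block). Rpl5 stood at 14.59, 14.57 and 14.57 in KE and at 14.86, 14.84 and 14.87 in WT, and Rplp0 went the other way, at 14.42, 14.41 and 14.41 against 14.21, 14.14 and 14.18. The replicate spread of these bright probes was small, so that differences of -0.28 and 0.24 separated the groups, and the block gave -0.09 and 0.05. The proteasome gave 2 higher and 14 lower of 31 (median -0.12, and 0.01 with the block), and the respiratory chain 7 higher and 20 lower of 75 (median -0.08, and -0.01 with the block). In the respiratory chain 71 of 75 genes had an interval within 1.5-fold, in the proteasome 29 of 31 and among ribosomal proteins 69 of 78.

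Among lists of cell stress and signalling, endoplasmic reticulum stress gave 3 higher and 4 lower of 28, antioxidant defence 3 and 6 of 33, interferon-stimulated genes 1 and 3 of 26, and insulin signalling 2 and 3 of 27. Psmb8, an immunoproteasome subunit, differed by -0.49, and Pik3ca, the catalytic subunit of a kinase of insulin signalling, by 0.78, and the block gave -0.10 and -0.21. Growth factors and receptors gave 6 and 6 of 23, with a median of -0.13 and 13 of 23 intervals within 1.5-fold, and interferon-stimulated genes also had a median of -0.13. Erbb4, a neuregulin receptor gene, and Spry4, for an inhibitor of growth factor signalling, passed the criterion. Erbb4 rose by 1.07 (0.01 with the block), and without WT 1 the difference was under the 2-fold limit. Spry4 stood at 5.20, 4.92 and 4.84 in KE and was not well above background on any WT array, at least 1.66-fold lower there, and the block gave -0.59. Chromatin regulators gave 4 and 6 of 35 and splicing genes 5 and 5 of 28. Luc7l2, a splicing factor gene with 11 probes, differed by 0.79 at the brightest (0.09 with the block).

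Among markers of the main cell types, neuronal genes gave 4 higher and 3 lower of 16, with a median of 0.00, and Snap25, a protein of vesicle release, differed by 0.39 (-0.14 with the block). Myelin genes gave 2 higher and 0 lower of 23 (median 0.05), astrocyte genes 3 and 2 of 18, and oligodendrocyte precursor genes 0 and 0 of 9, all 9 within 1.5-fold. Microglial genes gave 3 and 6 of 22. Siglech, a microglial lectin, rose by 1.06 at its brightest probe (-0.07 with the block), and without WT 1 the difference was under the 2-fold limit. Its other probes differed by 0.46 and -0.24 and did not pass the criterion. Itgam, the CD11b gene, differed by 0.80 while Laptm5 differed by -0.54, and with the block Itgam and Laptm5 differed by 0.0066 and 0.03. Endothelial and pericyte genes gave 1 higher and 3 lower of 21. Cldn5, the tight junction protein of brain vessels, stood at 11.91, 11.71 and 11.60 in KE and at 12.18, 12.14 and 12.19 in WT, a difference of -0.43, and of -0.57 with the block. Every KE array was below every WT array. In whole tissue, fewer cells of a type and less RNA per cell cannot be told apart.

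Lists of ventricle and neighbouring tissue gave tanycytes 1 higher and 1 lower of 12, choroid plexus 0 and 0 of 15, ependymal cilia 3 and 0 of 23, and cortex, hippocampus and thalamus 1 and 1 of 21. Ttr, the most abundant choroid plexus transcript, stood at 8.31, 7.49 and 8.38 in KE and at 7.15, 8.18 and 8.90 in WT, with overlap. Neurod6, a marker of cortex and hippocampus, differed by -0.40 with overlap (-1.24 with the block). The striatal list gave 0 higher and 2 lower of 19, with a median of -0.16 (-0.15 with the block). Drd2, the second dopamine receptor, differed by -0.41 and Drd1 by -0.46, with no overlap for either (-0.73 and -0.28 with the block). The part of neighbouring tissue in the differences was not tested.

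**Figure D5:**
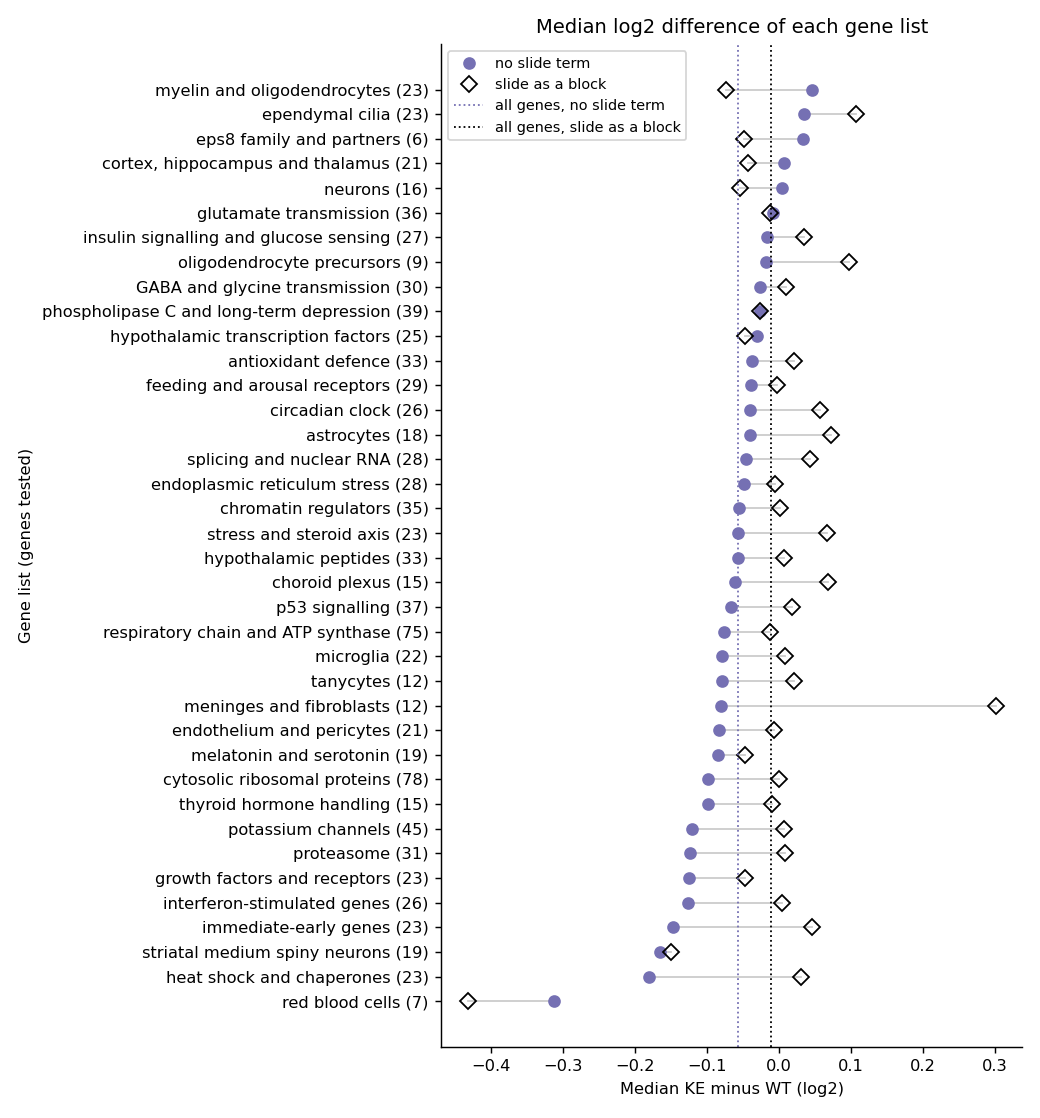
Median KE minus WT difference (log2) of each gene list with at least 5 genes tested, and of all genes, without and with slide as a block, with the number of genes tested. The medians without the block lie between -0.31 (red blood cells) and 0.05, and with the block between -0.43 (red blood cells) and 0.30 (meninges and fibroblasts).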

How the data were processed

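Cy3-labelled cRNA of 12 hypothalamus samples was hybridised to 1-colour Agilent mouse arrays, 3 per group. The authors extracted signals with Agilent Feature Extraction 10.7.1.1 and deposited, in a table of 56605 probes, log2 values that they quantile-normalized over the 12 arrays in GeneSpring, together with the processed intensity of each array and flags for detection. The deposited intensity values of the scanner output served as alternatives. The normalized log2 values were the main measurement, and 72 other per-sample columns were not used. Deposited tables of the authors' comparisons hold fold changes and p-values and were not used.

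Probes detected on all arrays of at least 1 group were tested (35229). One model over the 4 groups was fitted with limma 3.58.1 in R 4.3.3, and KE minus WT was taken from it, without and with slide as a block. Its SEs, intervals and p-values rest on the spread within all 4 groups. Without the block, the spread of KO includes the difference between its slides. P-values were adjusted by Benjamini-Hochberg over all tested probes. The screening criterion is that of the methods (2-fold and p under 0.05), whose unpaired test was an alternative. A signal "at least N-fold" higher compares the mean of the group above background with the mean, per array, of the higher of the dim probe and the lowest signal well above background. A probe counted as nearer to KE when the array lay past the midpoint of the group means. Genes on 39 lists were read at the brightest tested probe. Alternatives changed the normalization, the filter on dim probes, the variance estimate, the arrays in the fit, the probe rule and the block, 1 at a time, and 3 scanner normalizations were also fitted with the slide block. Scripts were tested on simulated data. Tables were handled with pandas 2.3.3 and numpy 2.4.6 (Python 3.11.15), and plots made with matplotlib 3.10.9. Precision is limited by the 3 arrays per group.

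Named genes were the genes the study names; among probes with a symbol and above background on all KE and WT arrays, the 8 largest rises and falls past the criterion in both fits without overlap, and the 5 largest in the fit without the block; of probes past the criterion in KO in both fits, the 6 nearest to WT in KE and up to 6 also past it in KE; up to 4 genes a list with the smallest p; and defining markers. Other genes with a symbol past the criterion in both fits were added after their values were seen. A few genes that the rule selects are not reported here. The members and lists were chosen with earlier results of these data known. Coordinates are those of the array annotation (mm9), and the position of the guide RNA was not analysed here.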

Additional observations from a re-analysis of the deposited data

How the results depend on the processing

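Against 965 probes past the criterion, 969 passed with quantile normalization of the scanner output, 1042 with 75th percentile scaling, 934 with the filter on KE or WT alone, 906 in the methods' t-test, 970 in limma on the 6 arrays, 978 with a trended prior and 1019 with array weights. The count moved to 392 (391 higher and 1 lower) with normexp correction, to 1798 without a filter (1340 and 458), to 607 with probes detected on all 12 arrays and to 300 of genes when probes were averaged per gene (276 and 24). With the slide block it was 281 (111 and 170). Slide blocks on the 3 scanner normalizations, chosen after seeing the data, gave 280 (quantile, 116 and 164), 279 (75th percentile, 151 and 128) and 35 (normexp, 17 and 18). The replicate block gave 957 (897 and 60) and no adjusted p under 0.05. Same-numbered arrays had correlations of deviations between -0.19 and 0.24, and differently numbered arrays between -0.26 and 0.24. These ranges do not settle whether same-numbered arrays share more than a number. The 0 probes with an adjusted p under 0.05 became 1838 with normexp, 34 without a filter, 4867 in the methods' t-test, 6194 in limma on the 6 arrays, 3189 with a trended prior, 10553 with array weights and 1 averaged per gene. With each array left out in turn, 898 to 1100 probes passed the criterion and 0 to 8169 had an adjusted p under 0.05. The highest was without KO 3, and the count was 127 without KO 2, 2 without KO 1, 1 without exercised WT 1 and 1 without WT 3. Gene lists gave 267 genes, and 21 with the slide block. KE was nearer to WT at 22 of 79 probes of KO, at 2 of 2 with normexp and at 61 of 89 probes chosen with the slide block, on levels not corrected for slide. Of the probes chosen on slide 1, 38 of 89 had the same direction in KE minus exercised WT, and 8 of 12 with normexp. The slide block turned the sign of Gm12504 (-0.32), 4933431I19Rik (-0.39), Ep300 (-0.30), Paip2b (-0.52), Olfr173 (-0.12), 9230102O04Rik (-0.54), Gm9878 (-0.25), Sim1 (-1.004), Cry1 (-0.72), Spry4 (-0.59) and Siglech (-0.074). Among these genes, 9230102O04Rik, Gm9878 and Spry4 were not well above background on any WT array, so that their sign with the block is not a measured difference. Of 40 calls at named genes, 17 were lost when some array was left out, 32 with normexp and 2 in limma on the 6 arrays, and none changed sign there. The cause was not tested. Dim probes near background have few arrays with a measured signal, and 3 arrays a group on separate slides limit every difference between KE and WT.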

Other observations

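Genes that nasal and airway epithelium express, a list of 27 written down after their values were seen, varied between the KE arrays. The number well above background was 18 on KE 1, 15 on KE 2 and 14 on KE 3, and 17, 12 and 13 on the WT arrays. Cyp2g1, a cytochrome P450 of the olfactory mucosa, was above background on KE 1 (5.53), KE 2 (5.68), exercised WT 1 (4.998) and exercised WT 2 (4.63), and stood at 1.87 on KE 3. Cyp2f2, a cytochrome P450 of airway secretory cells, stood at 9.24 on KE 1 and at 5.43 and 5.60 on KE 2 and KE 3, beside 5.47, 6.13 and 6.42 in WT. It stood at 9.74 and 9.29 on KO 1 and KO 2 and at 8.28 on exercised WT 3. Epcam, an adhesion protein of epithelia and the pituitary, was above background on KE 1 (5.01), KO 1 (5.31), KO 2 (5.28) and exercised WT 3 (4.07), the arrays with Cga and Pitx1. Bpifa1, a secreted airway protein, stood at 8.49, 7.74 and 7.78 in KE, at 6.88, 7.19 and 7.01 in WT and at 11.42 and 10.20 on KO 1 and KO 2. On the other arrays of slide 2 it stood at 7.90 (KO 3) and at 7.72, 7.85 and 8.01 (exercised WT). The probe of Pigr gave the highest signal of the list on all 12 arrays, at 15.11, 15.19 and 15.05 in KE and 14.58, 14.51 and 14.55 in WT. Pigr stood at 14.47 and 14.45 on KO 1 and KO 2, at 15.05 on KO 3 and at 14.99, 14.80 and 14.91 in exercised WT. Other members of the list had a lower mean in KE than in WT. Omp stood at 8.85, 9.41 and 8.31 in KE and at 10.52, 8.63 and 8.49 in WT, a difference of -0.35. Bpifb1 and Krt8 differed by -0.29 and -0.16, and none of these passed the criterion. Obp2a, Reg3g, Muc5ac and Krt5 were not well above background on any array. Prl, the prolactin gene of the pituitary, stood at 5.61 and 4.60 on KE 1 and KE 2 and at 1.85 on KE 3.

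Red blood cell genes gave 1 higher and 0 lower of 7, with a median of -0.31 (-0.43 with the slide block). Hba-a1, an alpha globin gene, stood at 16.19, 16.32 and 15.94 in KE and at 16.36, 16.71 and 16.64 in WT, all KE arrays lower, with a difference of -0.42 (limma adjusted p = 0.194). Genes of meninges and fibroblasts gave 0 higher and 0 lower of 12, with a median of -0.08 without and 0.30 with the slide block. Lhb and Tshb, the anterior pituitary genes that were tested, differed by 0.32 and -0.22. An untested Tshb probe, for the thyrotropin subunit, stood at 7.26 on KE 1, at 7.75 and 6.89 on KO 1 and KO 2 and at 6.98 on exercised WT 3, and at or below 3.04 on the other arrays. The part of epithelial, pituitary, blood and meningeal tissue in the differences was not tested.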
